A study of Homo sapiens with 18 samples.

Results

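HEK293 cells lacking Gαs were compared with wildtype HEK293 cells before any stimulation, to ask how the transcriptome of the 2 lines already differed without agonist. HEK293 is a line derived from human embryonic kidney, and the Gαs KO line was made from it by CRISPR-Cas9. The comparison takes 6 of the 18 libraries of the study, the 3 Gαs KO and the 3 wildtype libraries given vehicle for 1 h, chosen by their labels alone. All cells, wildtype included, had been transfected with a plasmid for the β2-adrenergic receptor (β2AR), serum starved overnight and given vehicle or agonist 48 h after transfection, so unstimulated here means without agonist and not without receptor. The other libraries were used only to set results beside them, namely both lines with 1 μM isoproterenol, a β2AR agonist, for 1 h, and β-arrestin1/2 KO cells, which lack both β-arrestins and keep Gαs, with vehicle or isoproterenol. Each group had 3 biological replicates of 1 line. Whether a KO line is a single clone is not given in the sources used here, and a difference between 2 lines that follows the knockout cannot be told apart from one that follows the line.

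The deposited values were expected counts per transcript, and the 6 libraries held 18857678 to 24182597 of them. Transcripts were summed to genes, of which 15519 passed a filter on low counts. Values below are normalized counts (counts scaled to a common library size by the TMM method), a log2 difference is Gαs KO minus wildtype with its standard error, and a gene was called at an adjusted p under 0.05 by edgeR's quasi-likelihood test. Wildtype library 1 stood apart from the others. The mean GC content of its counts was 52.49%, against 49.15 to 50.04% in the other 5 libraries. Over genes it differed from wildtype libraries 2 and 3 with chi-square values of 131.83 and 103.62 per degree of freedom, while the other pairs within a group gave 3.99 to 9.05. Results are therefore also given without it. Of 10 genes fixed as typical of HEK293 cells, 9 had at least 10 counts in all 6 libraries. Fibroblast, leukocyte, endothelial and hepatocyte markers were mostly low, with 4, 3, 4 and 1 of 10 at that level. CD3E and FGA had no count. The summed level of the leukocyte markers was 298.8 to 461.5 in wildtype and 163.1 to 200.2 in Gαs KO libraries, most of it CD68 (351, 211 and 224 against 113, 92.8 and 111), and that of the hepatocyte markers 62.4 to 76.1 and 120.9 to 129.0, most of it TF. The sums of the fibroblast markers (756.0 to 1153.1 and 829.2 to 923.1) and endothelial markers (570.9 to 1033.3 and 602.2 to 656.3) overlapped between the lines. The part of these markers in the results was not tested.

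Gαs is the α-subunit of the stimulatory heterotrimeric G protein. Coupled to receptors such as β2AR it activates adenylyl cyclases, and the cAMP they make activates protein kinase A (PKA), which phosphorylates the transcription factor CREB at genes that carry a cAMP response element. Phosphodiesterases degrade cAMP and so end the signal. Even without agonist, receptors and G proteins have some activity, so that unstimulated cells hold a basal cAMP level.

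GNAS, which encodes Gαs (chromosome 20 from 58839718 to 58911192 of GRCh38), had 33553, 20419 and 21655 normalized counts in the wildtype libraries and 1253, 1173 and 1365 in the Gαs KO libraries. The groups were far apart, and the log2 difference was -4.32 ± 0.15 (adjusted p = 9.4e-12). Without wildtype library 1, the highest of the wildtype libraries, it was -4.06.

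In all, 4864 of 15519 genes were called (31.3% of those tested), 2206 higher (14.2%) and 2658 lower (17.1%) in Gαs KO cells. Most differences were small. The median size was 0.65 for genes called higher and 0.62 for genes called lower on the log2 scale, and 647 higher (4.17%) and 608 lower genes (3.92%) differed at least 2-fold, 8.09% together. At least 8-fold differences were found for 125 higher and 75 lower genes. Without wildtype library 1, 7236 of 15773 genes were called (45.9%), and 4377 of the 4864 were among them in the same direction. A fit of the 6 libraries alone called 1587 genes, and the same fit without that library called 7073.

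Well measured genes were those called with and without wildtype library 1 in the same direction, whose libraries did not overlap between the lines, with a mean of at least 200 normalized counts in the higher and 20 in the lower line. The largest differences among them, those of GJB2 and SHISA2, were on the lower side, followed by SPANXN3 on the higher side (log2 difference 5.08). GJB2, which encodes the gap junction protein connexin 26, had 13152, 14153 and 13375 counts in the wildtype libraries. It had only 102, 108 and 98.8 in Gαs KO cells, a 132-fold lower mean (log2 difference -7.04 ± 0.08, adjusted p = 8.7e-19). SHISA2, whose product retains Wnt and FGF receptors in the endoplasmic reticulum, had 22157, 27740 and 27375 against 553, 654 and 617 and was 42.4-fold lower (-5.40 ± 0.10). For both genes the replicates of a line lay close together. Both lie on chromosome 13, GJB2 from 20187463 to 20193010 and SHISA2 from 26044597 to 26051031.

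Next on the lower side, after GNAS, came ULK2, a kinase that starts autophagy. It had 1250, 1335 and 1232 counts in wildtype and 57, 81.5 and 59.5 in Gαs KO cells (log2 difference -4.27 ± 0.13). DEPP1, a FOXO-induced protein linked to autophagy, was abundant in wildtype cells (16527, 11056 and 11344) and much lower in Gαs KO cells (1099, 1157 and 1188, -3.50 ± 0.14). DOC2B, a calcium sensor of vesicle fusion, had 468, 361 and 406 against 0, 48.7 and 37.7. For DOC2B 1 Gαs KO library was at 0 while the other 2 held some counts, so its size (-3.82 ± 0.50) is less certain than the others. FZD10, a Wnt receptor, had 685, 661 and 745 against 85.9, 34.7 and 59.5 (-3.54 ± 0.20), and NR4A1, an orphan nuclear receptor and immediate-early gene, had 3886, 2219 and 2976 against 334, 323 and 343 (-3.18 ± 0.16).

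The rest of the 15 lower genes, which include GNAS, were CERS1 (ceramide synthase), LRP2 (the endocytic receptor megalin), EMILIN3 (an extracellular matrix glycoprotein), PDLIM4 (an actin-associated PDZ and LIM protein), MATK (a tyrosine kinase that inhibits Src kinases), GDF7 (a BMP ligand) and MAP7D2 (a microtubule-binding protein). Their log2 differences ran from -2.73 for CERS1 to -2.55 for MAP7D2. LRP2 had 526, 420.4 and 459 against 75.6, 84.3 and 57.8 and GDF7 562, 374 and 412 against 59.8, 92.8 and 64.5. CERS1 overlaps the gene GDF1 and its reads can be shared with it. Its wildtype library 1 was the highest, and its value was -2.29 without that library. With isoproterenol its difference was not called (-0.93, adjusted p = 0.0775).

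**Figure D1:**
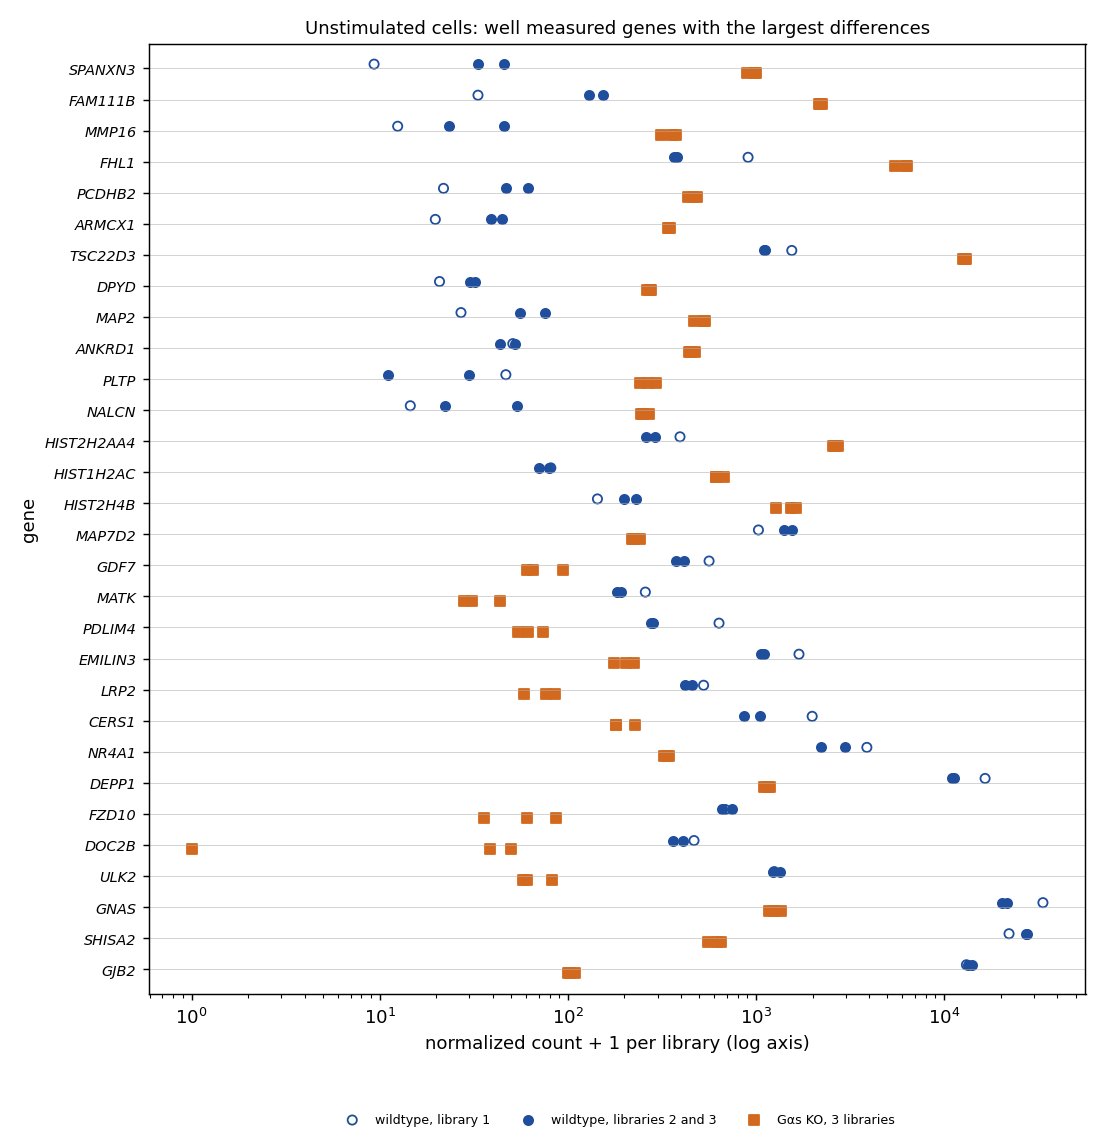
Normalized count plus 1 (log axis) of the 15 well measured genes with the largest higher and the 15 with the largest lower difference in unstimulated Gαs KO cells, a point per library. Open circles are wildtype library 1, filled circles wildtype libraries 2 and 3, and squares the 3 Gαs KO libraries. In each row the squares lie wholly to the left or to the right of the circles, as the rule for these genes requires.

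On the higher side SPANXN3, a member of a multigene family on the X chromosome whose reads may be shared with its copies, had 8.33, 32.3 and 44.8 counts in wildtype and 897, 984 and 998 in Gαs KO cells (log2 difference 5.08 ± 0.35). FAM111B, a nuclear protease, had 32.3, 128 and 153 against 2187, 2165 and 2231 (4.40 ± 0.31). TSC22D3, which encodes the glucocorticoid-induced leucine zipper protein GILZ, was the most abundant of these genes, with 1550, 1108 and 1116 against 12638, 13007 and 12850 (3.35 ± 0.11, adjusted p = 5.4e-12). All 3 were higher without wildtype library 1 as well, by 4.63, 3.96 and 3.53.

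FHL1, a LIM-domain protein of muscle and cytoskeleton, had 907, 381 and 364 against 5470.2, 6314 and 6346 (3.45 ± 0.31). MMP16, a membrane-bound matrix metalloproteinase, had 11.5, 44.6 and 22.4 against 310, 357 and 375 (3.73 ± 0.39), and ANKRD1, a target of the transcriptional coactivator YAP, 50, 42.4 and 51.5 against 448, 472 and 441 (3.24 ± 0.28). The others were PCDHB2 (a clustered protocadherin), ARMCX1 (mitochondrial transport in axons), DPYD (pyrimidine breakdown), MAP2 (a microtubule protein of dendrites), PLTP (phospholipid transfer between lipoproteins), NALCN (a sodium leak channel) and the histone genes HIST2H2AA4, HIST1H2AC and HIST2H4B. Their log2 differences ran from 3.45 for PCDHB2 to 2.97 for HIST2H4B. In 9 of these 15 genes wildtype library 1 was the lowest wildtype library, and in 5 it was the highest. HIST2H2AA4 and HIST2H4B have near-identical copies between which Salmon splits reads, so the level of each copy is uncertain.

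A further set of genes, chosen by the same conditions, was close to absent in 1 line, with a mean under 20 normalized counts there. CGA, the α-subunit shared by the glycoprotein hormones and a classical cAMP-induced gene, had 10523, 9933 and 10261 counts in wildtype cells and 16.8, 7.5 and 13.4 in Gαs KO cells, a log2 difference of -9.65 ± 0.21 (adjusted p = 1.4e-14). No other called gene of the list of cAMP-induced genes had as large a difference. COL2A1, the type II collagen chain, had 1647, 1094 and 1212 against 27.1, 8.43 and 17.6 (-6.21 ± 0.30), BCL6B, a transcriptional repressor, 611, 502 and 603 against 3.73, 0.937 and 3.35 (-7.66 ± 0.43), and FAM19A5, a secreted neurokine-like protein, 338, 229.7 and 286 against 0, 0.937 and 0.838. LCNL1, a lipocalin-like gene, had 902, 496 and 564 against 0, 0 and 4.19 (-8.66 ± 0.53).

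PUDP, a pseudouridine phosphatase on the X chromosome, had 624, 775 and 726 counts in wildtype cells and 0 in all 3 Gαs KO libraries, which makes it at least 252-fold lower when 3 counts per library are taken as the limit of detection. It was at 0 in the Gαs KO libraries with isoproterenol too. CASP8AP2 was likewise at 0 in the 3 unstimulated Gαs KO libraries against 655, 951 and 453, yet with isoproterenol its level was 142 ± 246 (mean ± SD, n = 3) and no difference was called (adjusted p = 0.59). NOMO1, which has near-identical copies on the same chromosome, had 491, 643 and 4.48 against 0, 2.81 and 0, so 1 wildtype library was nearly as low as the Gαs KO cells. The values of CASP8AP2 and NOMO1 are therefore uncertain.

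In the other direction SRPX2, a secreted sushi-repeat protein, had 18.8, 16.7 and 21.3 counts in wildtype and 921, 962 and 980 in Gαs KO cells (5.65 ± 0.24). PGR, the progesterone receptor, had 0, 5.58 and 2.24 against 217, 209 and 220.3 (6.33 ± 0.66), and MME, the cell surface peptidase neprilysin, 9.38, 2.23 and 24.6 against 198, 221 and 227 (4.15 ± 0.76). GALC, the lysosomal galactosylceramidase, was at 0 in the 3 wildtype libraries and had 232, 246 and 263 in Gαs KO cells, which is at least 73.7-fold higher. KIAA1147 was at 0 in wildtype cells as well (458, 1221 and 420.5 in Gαs KO cells), but with isoproterenol the log2 difference was 0.19 and not called, so that its basal value is uncertain.

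Genes that cAMP is known to induce were examined as a list of 77, of which 66 passed the filter on low counts. The members of this list and of the lists of functions below were chosen with earlier results of these data known. The part of that choice in the counts was not tested. Members such as G6PC, SST, TH, CRH and VIP, which hepatocytes, neurons or endocrine cells express, were among the 10 that did not pass it, and 1 was not analysed here. Of the 66 genes tested, 29 were lower and 5 higher in Gαs KO cells, and 32 were not called, where 17.1% and 14.2% of all genes tested were called lower and higher. The median log2 difference was -0.32, against 0.01 for all genes tested. Differences of at least 2-fold were found for 13 of the lower and 3 of the higher genes. Without wildtype library 1, 28 were lower and 7 higher, with a median of -0.19, where 24.0% of all genes were called lower and 21.9% higher. The lower members ranged from -9.65 for CGA to -0.33 for DUSP1 on the log2 scale.

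The cAMP response element TGACGTCA, which reads the same on both strands, was searched in the 250 bases before the annotated start of each gene (RefSeq promoters, GRCh38.p14). It occurred in 1.65% of all 35116 start sites and, counting a gene when any of its starts held it, in 3.17% of the 11323 tested genes that had a promoter in the table. Of the list of cAMP-induced genes, 47 had a promoter there and 8 held the element, 6 of them lower in Gαs KO cells (CGA, PCSK1, CREM, AVPI1, MAFF and DUSP1) and 2 not called (AREG, with a log2 difference of 1.14 and an adjusted p of 0.27, and VGF). The upstream sequences of 3 are shown because they carry the same element and span the sizes of difference that were measured, with the element in capitals and each written 5′ to 3′ toward the start site. CGA (chr6:87095107-87095356, minus strand) holds 2 copies, which begin 142 and 124 bases before the start, PCSK1 (chr5:96433249-96433498, minus strand) holds 1 at 77 bases, and DUSP1 (chr5:172771196-172771445, minus strand) 1 at 125 bases.
CGA: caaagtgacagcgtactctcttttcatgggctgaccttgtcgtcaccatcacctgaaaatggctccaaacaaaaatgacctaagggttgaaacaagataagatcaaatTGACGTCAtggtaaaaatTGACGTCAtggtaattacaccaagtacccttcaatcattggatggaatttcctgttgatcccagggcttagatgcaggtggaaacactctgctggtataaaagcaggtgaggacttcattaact
PCSK1: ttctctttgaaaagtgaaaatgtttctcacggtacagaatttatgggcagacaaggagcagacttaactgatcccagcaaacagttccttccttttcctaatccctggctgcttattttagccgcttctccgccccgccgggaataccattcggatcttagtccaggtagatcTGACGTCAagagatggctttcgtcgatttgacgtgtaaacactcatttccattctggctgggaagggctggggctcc
DUSP1: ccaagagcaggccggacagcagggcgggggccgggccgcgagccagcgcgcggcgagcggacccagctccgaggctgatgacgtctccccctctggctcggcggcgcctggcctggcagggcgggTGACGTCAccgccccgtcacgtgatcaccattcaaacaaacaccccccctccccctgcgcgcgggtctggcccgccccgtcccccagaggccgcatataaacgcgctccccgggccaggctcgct
PCSK1, a protease that processes prohormones, was much lower in Gαs KO cells like CGA, with 60.4, 114 and 91.8 against 2.8, 2.81 and 8.38 counts (-4.18 ± 0.40). DUSP1, a phosphatase that inactivates MAP kinases, had 1917, 1334 and 1636 against 1256, 1332 and 1289.9 (-0.33 ± 0.11, adjusted p = 0.0282). Wildtype library 2 lay next to the highest Gαs KO library, and the difference was not called without wildtype library 1 (-0.20, adjusted p = 0.084). The exact element was thus present both where the basal difference was among the largest and where it was small. Over all genes with a promoter, it was found in 4.27% of the 1942 genes called lower, 2.01% of the 1691 called higher and 3.15% of the 7690 not called.

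Among the transcription factors of the list, the 3 NR4A nuclear receptors were lower together. NR4A2 had 232, 253 and 298 against 116, 108 and 109 (-1.23 ± 0.13) and NR4A3 122, 117 and 141 against 31.7, 38.4 and 16.8 (-2.13 ± 0.26), beside NR4A1 above. FOS, a subunit of AP-1, had 201, 161 and 172 against 51.4, 57.2 and 31 (-1.94 ± 0.20, adjusted p = 1.9e-06) and FOSB 330.2, 279 and 259.6 against 135, 101 and 133 (-1.23 ± 0.13). CREM, a CREB family member that includes the feedback repressor ICER, had 804, 909.9 and 912 against 564, 507 and 499 (-0.74 ± 0.11). For none of these genes did the lines overlap. Smaller differences were called for MAFF (-0.68), NFIL3 (-0.47), CSRNP1 (-0.41), PPARGC1A, the coactivator of gluconeogenic and mitochondrial genes (-0.80), and the clock genes PER1 (-0.84) and PER2 (-0.48). The difference of CSRNP1 was not called without wildtype library 1 (adjusted p = 0.12).

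Among enzymes and secreted products, PCK1, the gluconeogenic phosphoenolpyruvate carboxykinase, had 339, 199.6 and 291 counts in wildtype and 15.9, 17.8 and 16.8 in Gαs KO cells (-4.03 ± 0.23, adjusted p = 2.6e-09). INHBA, the activin A subunit, had 100, 174 and 154 against 29.9, 14.1 and 22.6 (-2.68 ± 0.30), and the neuropeptide precursor NTS 51, 59.1 and 59.3 against 10.3, 3.75 and 7.54 (-2.95 ± 0.46). The membrane protein GPRC5A (930.2, 888 and 946 against 395, 375 and 375, -1.27 ± 0.08) and IRS2, an adaptor of the insulin receptor (4721, 5227 and 5765 against 2625, 2766 and 2599, -0.98 ± 0.07), were lower with replicates close together. Other lower members were AVPI1 (-0.78), the kinase SGK1 (-0.46), the glucose transporter SLC2A3 (-0.45, with overlapping libraries) and the small GTP-binding protein GEM (-0.54).

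Negative regulators of signalling were among the lower genes. DUSP5, which dephosphorylates ERK, had 277, 221 and 237 against 110.2, 78.7 and 73.7 (-1.49 ± 0.16). RGS16 (1355, 954 and 855 against 568, 529 and 544, -0.95 ± 0.12) and RGS2 (-0.63, with overlapping libraries), which speed up the GTPase of G proteins, were lower, and so were the cAMP phosphodiesterases PDE4D (433, 874 and 829 against 373, 391 and 383, -0.90 ± 0.17) and PDE4B (-1.14, on counts under 40 in each library).

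The 5 members called higher were BDNF, a neurotrophin (32.3, 15.6 and 39.2 against 129, 134 and 106, 2.07 ± 0.24), PRKG2, a cGMP-dependent kinase (34.4, 17.8 and 22.4 against 104, 94.7 and 101, 1.99 ± 0.22), TAT, tyrosine aminotransferase (1.55, on fewer than 20 counts in each library), IER3, an immediate-early gene (162, 145 and 123 against 204, 249 and 273, 0.75 ± 0.17) and CITED2, a transcriptional coregulator (1758, 1496 and 1639 against 2193, 2255 and 2425, 0.49 ± 0.08). BDNF, PRKG2 and TAT had low levels in both lines. In each of the 5 genes the lines did not overlap, as was so with Gαs KO cells higher for 19.2% of all genes tested.

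**Figure D2:**
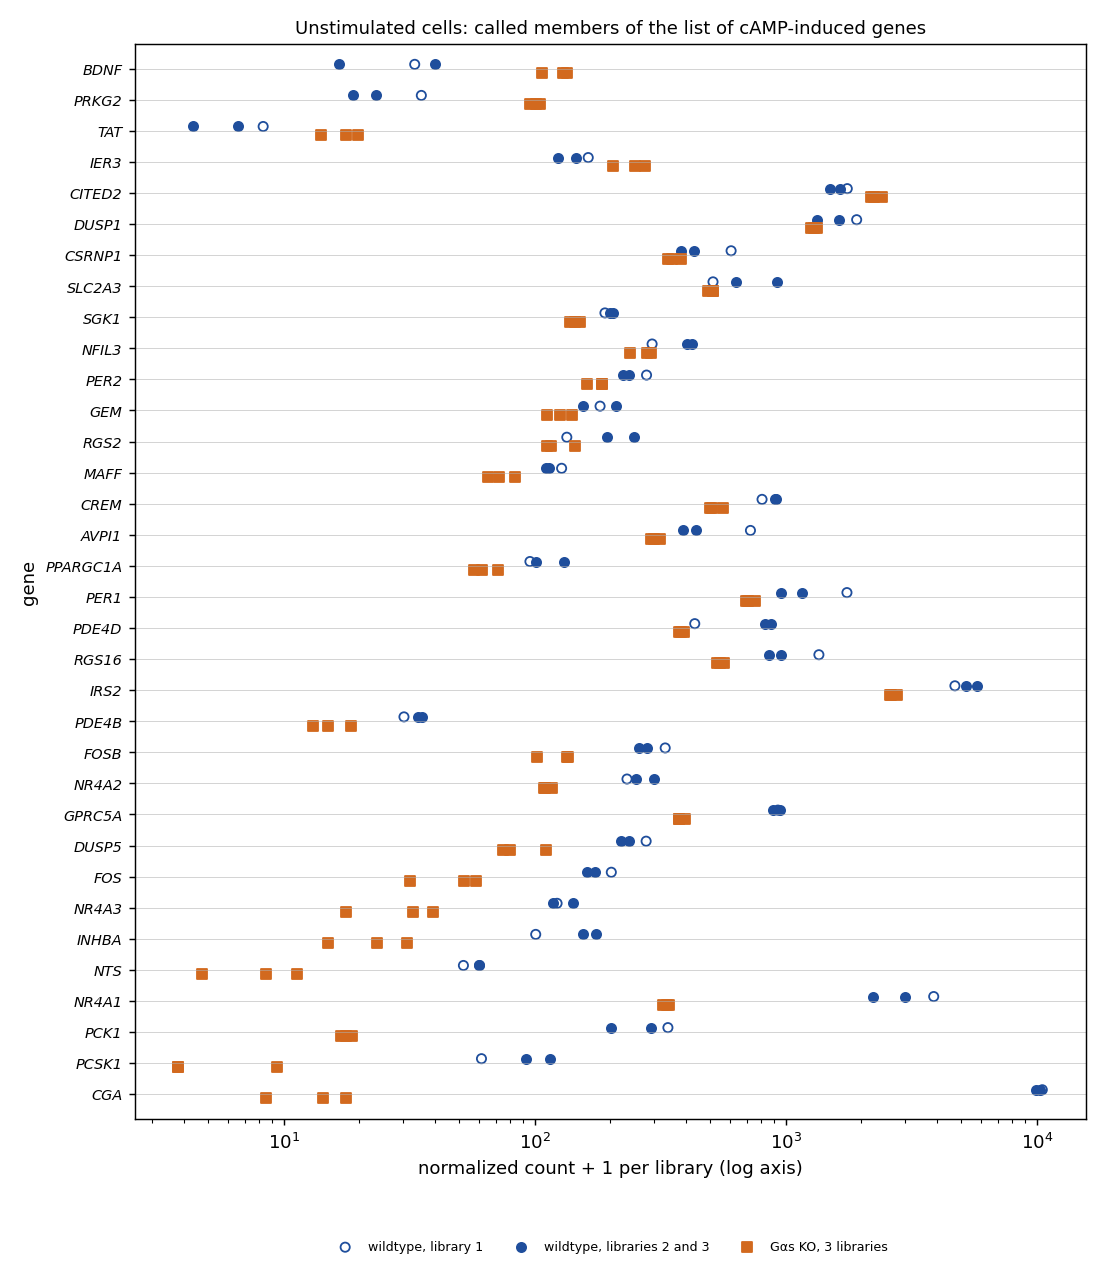
Normalized count plus 1 (log axis) of the 34 members of the list of cAMP-induced genes called between unstimulated Gαs KO and wildtype cells, with symbols as in the plot of well measured genes. CGA, PCSK1 and PCK1 at the bottom have the widest gaps between the lines, while for genes such as DUSP1 and SLC2A3 the points of both lines lie close together.

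Which genes respond to β2AR in cells of this kind was taken from another line, so that the choice used neither group of the comparison. In β-arrestin1/2 KO cells 1.13% of the genes tested changed with isoproterenol, and 148 genes (0.954%) rose. Of these 148 genes, 74 were lower and 16 higher in unstimulated Gαs KO than in unstimulated wildtype cells, with a median of -0.32 where all genes tested had 0.01 and 17.1% were lower and 14.2% higher. Without wildtype library 1, 85 were lower and 23 higher, beside 24.0% and 21.9% of all genes. Of the 27 genes that fell with isoproterenol, 14 were higher and 1 lower, with a median of 0.31. With genes chosen in a fit of the 6 β-arrestin1/2 KO libraries alone, 725 genes rose and 24.1% were lower in Gαs KO cells, in place of 50.0%. Of these 725 genes, 389 were lower and 79 higher without wildtype library 1, with a median of -0.23, beside 24.0% and 21.9% of all genes. The β-arrestin1/2 KO libraries share the model and its estimate of spread with the comparison, but no library of it.

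A large response to isoproterenol did not go with a large basal difference for every gene. Of the 10 well measured genes with the largest response in β-arrestin1/2 KO cells, 6 were lower at basal (PCK1, NR4A1, NR4A2, NR4A3, FOS and DUSP1). JUNB, an AP-1 subunit, had 603, 419 and 513 against 499, 599 and 522 (0.08 ± 0.13, adjusted p = 0.7), and BTG2, an antiproliferative immediate-early gene, 1059, 995 and 1017 against 954, 962 and 993 (-0.08 ± 0.10, adjusted p = 0.6). The libraries of the lines overlapped for JUNB and lay side by side for BTG2. SIK1, a salt-inducible kinase, had 178, 249 and 252 against 235, 145 and 164 (-0.32 ± 0.17, adjusted p = 0.17) and its near-identical copy SIK1B -0.46 (adjusted p = 0.16). Of these 4 genes SIK1 was called lower without wildtype library 1 (-0.47, adjusted p = 0.0239) and the others in neither fit. With isoproterenol all 4 were lower in Gαs KO cells, with log2 differences of -2.66 (JUNB), -2.16 (BTG2), -2.62 (SIK1) and -2.73 (SIK1B).

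**Figure D3:**
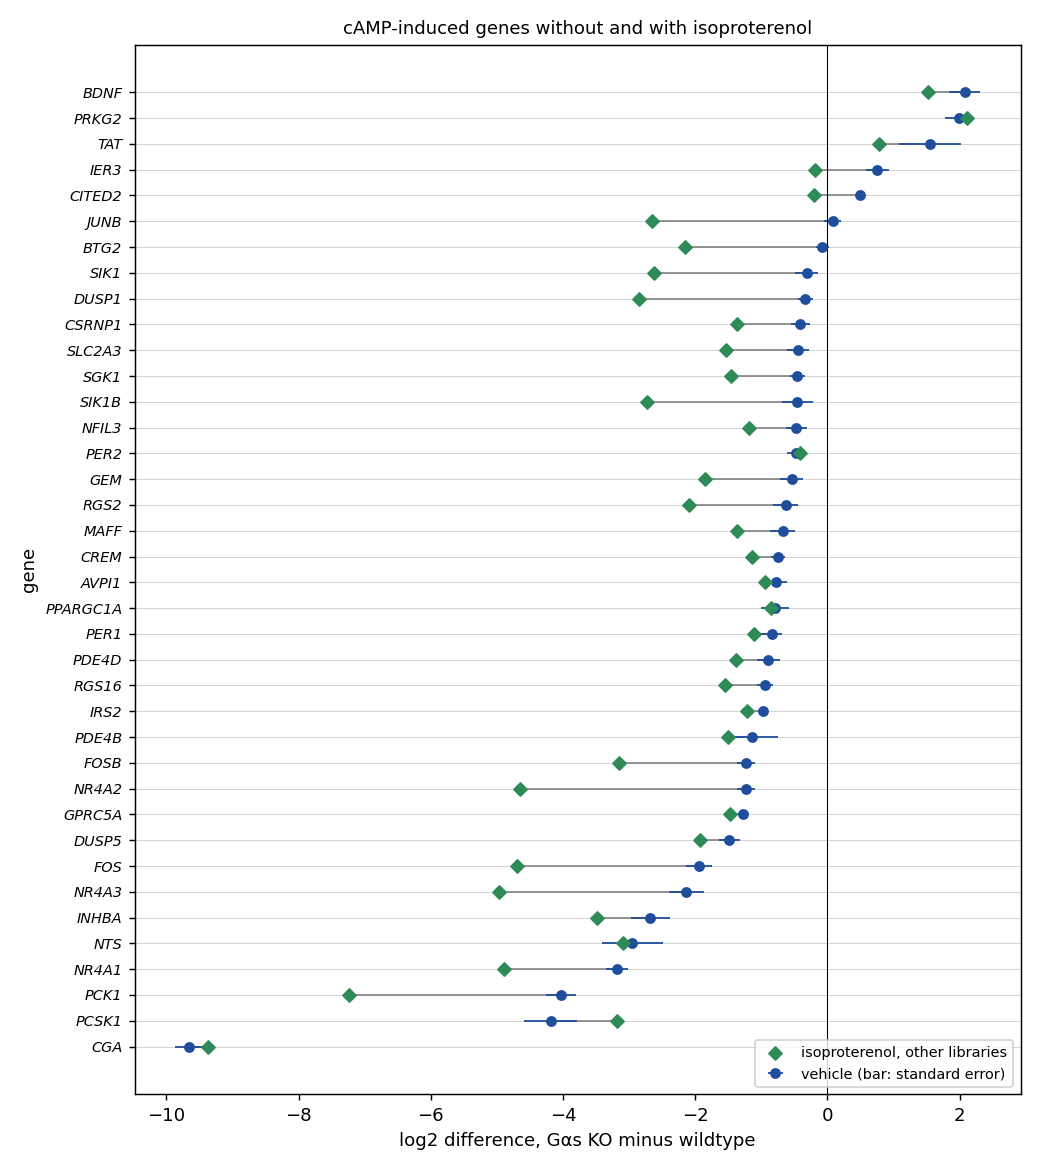
Log2 difference, Gαs KO minus wildtype, of the called cAMP-induced genes and of the 10 genes with the largest isoproterenol response in β-arrestin1/2 KO cells. Circles with standard error bars are the vehicle libraries and diamonds the libraries with isoproterenol, and a line joins both values of a gene. CGA, NTS and GPRC5A have nearly the same value in both, while JUNB, BTG2 and DUSP1 lie between -0.33 and 0.08 with vehicle and between -2.86 and -2.16 with isoproterenol.

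The difference between the lines was tested for a change with isoproterenol as an interaction of line and treatment. It was called for 25 of 15519 genes (0.161%), 24 of which (0.155%) had a lower and 1 (0.00644%) a higher difference with isoproterenol than with vehicle. DUSP1 changed from -0.33 to -2.86, NR4A2 from -1.23 to -4.65 and PCK1 from -4.03 to -7.23. CITED2, higher in Gαs KO cells with vehicle (0.49), was not called with isoproterenol (-0.20). For CGA (-9.65 and -9.38) no such change was called. In libraries with isoproterenol, which were all different ones, 4646 genes were called between the lines (29.9%), and 3399 genes were called in both treatments in the same direction, 69.9% of the unstimulated and 73.2% of the isoproterenol calls.

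The machinery that makes, breaks down and reads cAMP was examined as a second list of 62 genes, 54 of which were tested. Of these, 21 were lower and 4 higher in Gαs KO cells, with a median of -0.20, beside 17.1% and 14.2% of all genes. Without wildtype library 1, 20 were lower and 10 higher, beside 24.0% and 21.9% of all genes. Differences were mostly under 2-fold, as 5 lower and 0 higher genes passed that size.

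Among G protein subunits the paralog GNAL, which encodes Gαolf, the α-subunit that also activates adenylyl cyclase in olfactory neurons, was lower (1299, 1503 and 1384 against 651, 695 and 694, -1.04 ± 0.08, adjusted p = 1.1e-07). GNAZ, an inhibitory α-subunit, was lower too (1051, 971 and 933 against 668, 659 and 624, -0.60 ± 0.09), and GNAI2, another inhibitory α-subunit, was higher (2117, 1757 and 1734 against 2758, 2899.5 and 2822, 0.60 ± 0.08). With GNAS these were all of the 25 tested subunits that were called, 3 lower and 1 higher, and 8 lower and 5 higher were called without wildtype library 1, where the shares of all genes were 24.0% and 21.9%. Of the receptor kinases, GRK3 was lower (-0.74) and GRK2 higher (0.43). Of the adenylyl cyclases, ADCY1 was lower (2377, 1695 and 1609 against 1187, 1209.9 and 1217, -0.65 ± 0.12), and so were ADCY3 (564, 358 and 398 against 243, 184 and 266, -0.93 ± 0.29) and, by less, ADCY9 (-0.26). GNAL (-0.45) and ADCY1 (-0.79) were also lower than in unstimulated β-arrestin1/2 KO cells. GNAZ, GNAI2, GRK2, GRK3, ADCY3 and ADCY9 were not called between the KO lines.

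Phosphodiesterases made up 9 of the 21 lower genes. The tested phosphodiesterases were not counted apart, so this number has no share to set beside the 17.1% of all genes called lower. Besides PDE4B and PDE4D, PDE10A (809, 1394 and 1437 against 716, 676 and 652, -0.83 ± 0.16), PDE8B (205, 319 and 320 against 171, 112 and 152, -0.95 ± 0.18), PDE8A (-0.55), PDE7A (-0.60) and PDE7B (-1.75, at low counts) were lower, and no phosphodiesterase of the list was called higher. PDE1B (-0.61) and PDE4A (-0.41) were called lower, but not without wildtype library 1 (adjusted p = 0.31 and 0.2). The same held for β-arrestin2 (ARRB2, -0.42 and -0.16) and for ADCY3 (adjusted p = 0.053). Against unstimulated β-arrestin1/2 KO cells, which keep Gαs, PDE8A (-0.37), PDE8B (-0.78) and PDE10A (-0.44) were called lower in Gαs KO cells. PDE1B, PDE4A, PDE4B, PDE4D, PDE7A and PDE7B were not called between the KO lines (adjusted p 0.13 to 0.93).

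Among effectors, the regulatory PKA subunits PRKAR1A (4961, 6513 and 6748 against 5017, 4908 and 5009, -0.29 ± 0.09) and PRKAR2A (-0.28) were slightly lower, with wildtype library 1 at the level of the Gαs KO cells for both. The catalytic PRKX was higher (0.94) at counts of 70 or less and with overlapping libraries. PRKACA, another catalytic subunit gene, did not pass the filter on low counts, which used only matched transcripts (161798 of 184844 in all). PRKAR2B, a regulatory one, was not found among the matched genes, so neither was tested. The PKA inhibitor PKIB was lower (64.6, 157 and 131 against 61.6, 48.7 and 57.8, -1.07 ± 0.27), while PKIA was called higher (0.46, and 0.22 with an adjusted p of 0.0624 without wildtype library 1). The Popeye proteins POPDC3 (-1.07) and BVES (-0.46), which bind cAMP at the membrane, were lower. CREB1, the transcription factor itself, was higher (477, 813 and 759.8 against 899, 893 and 967, 0.43 ± 0.14), with wildtype library 1 below the others, and was not called with isoproterenol (0.20, adjusted p = 0.33). Against unstimulated β-arrestin1/2 KO cells PKIA was higher (1.63), and POPDC3 (-0.71) and BVES (-0.90) were lower. PRKAR1A, PRKAR2A, PRKX, PKIB and CREB1 were not called between the KO lines.

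Other functions were examined with 37 gene lists in all, which held 1940 tested genes. Of these, 764 were called, 329 higher and 435 lower. Beside each list below stand the 14.2% of all genes that were called higher and the 17.1% that were called lower. No test compares a list with other genes, and the lists were chosen with earlier results of these data known.

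**Figure D4:**
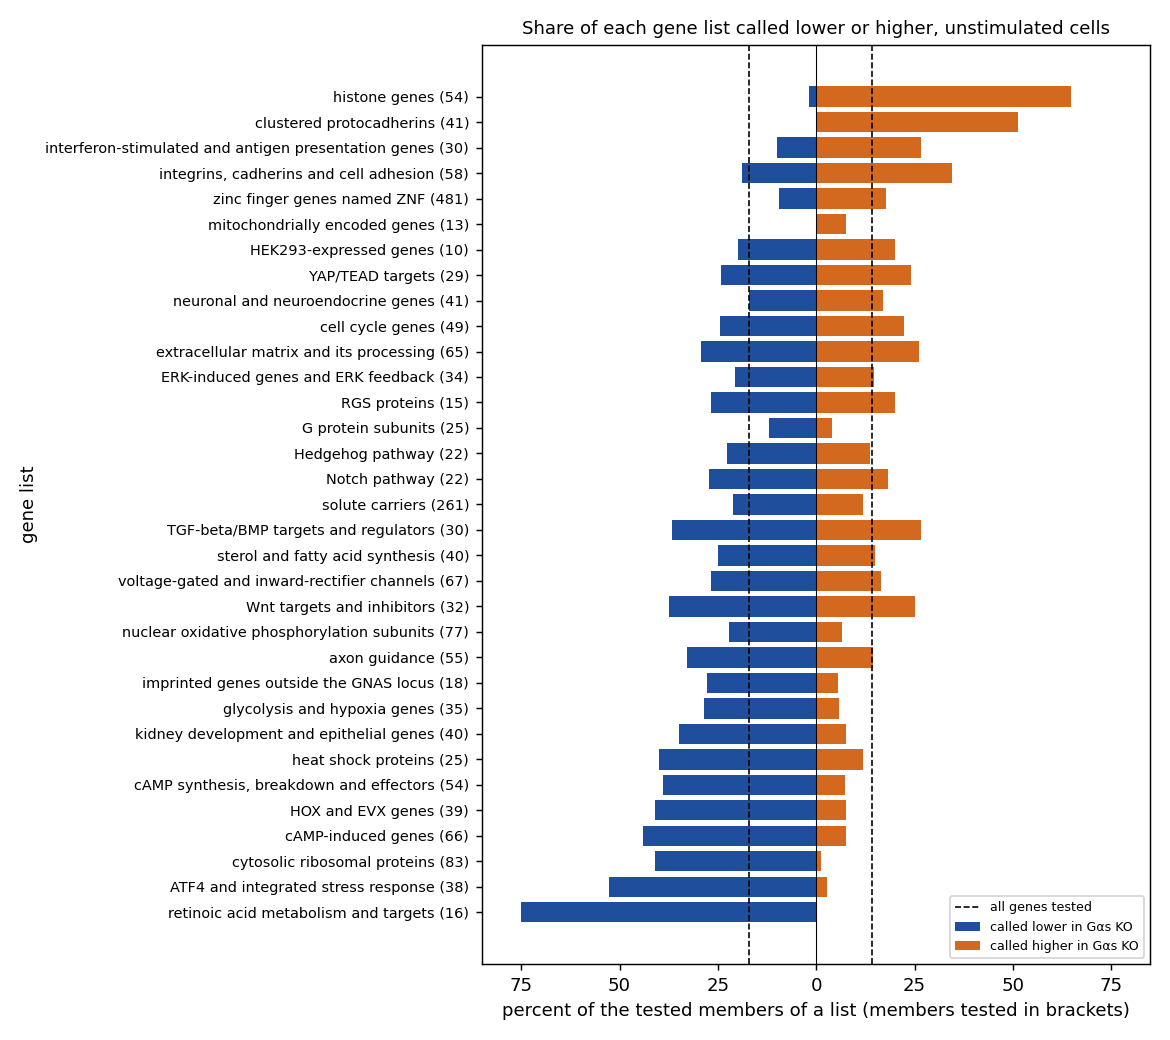
Percent of the tested members of each gene list called lower (left) and higher (right) in unstimulated Gαs KO cells, with the number tested in brackets and dashed lines at the percentages of all genes tested. Lists of fewer than 10 tested members are left out. The bars of retinoic acid genes (12 of 16 lower) and of histone genes (35 of 54 higher) reach furthest.

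Retinoic acid, made from vitamin A, acts on genes through nuclear receptors. Of 16 tested genes of its metabolism and targets, 12 were lower and 0 higher, with a median of -1.02 (-0.74 without wildtype library 1). DHRS3, which returns retinal to retinol, had 673, 527 and 529 against 133, 112 and 106 (-2.30 ± 0.12, adjusted p = 7.2e-10). RDH10, which makes retinal, had 2925, 4119 and 3884 against 1266, 1316 and 1324 (-1.48 ± 0.10), and ALDH1A2, which makes retinoic acid, 673, 785 and 596 against 176, 160.2 and 152 (-2.07 ± 0.12). Enzymes of both directions of the pathway were thus lower. HOX and EVX genes, which set position along the body axis, had 16 of 39 lower and 3 higher, with a median of -0.28. HOXB9 was among the lower (1694, 1445 and 1679.7 against 704, 735 and 739.6, -1.15 ± 0.09).

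Signalling pathways of development had members called in both directions. Of 32 Wnt targets and inhibitors, 12 were lower and 8 higher. LGR5, a receptor for R-spondins and a Wnt target, was higher (84.4, 231 and 217 against 1022, 1063 and 1012, 2.54 ± 0.24). APCDD1 (252, 222 and 223 against 82.2, 73.1 and 68.7, -1.64 ± 0.11) and SFRP1 (1256, 1347 and 1353 against 519, 655 and 575, -1.18 ± 0.09), both Wnt inhibitors, were lower. Of 30 TGF-β and BMP genes, 11 were lower and 8 higher. The ligands BMP2 (331, 386 and 438 against 146, 151 and 187, -1.25 ± 0.12) and BMP7 (2454, 1906 and 1989.6 against 967, 959 and 932, -1.15 ± 0.10) and the BMP target ID1 (-1.14) were lower, and TGFB1 (477, 293 and 330.1 against 721, 789 and 776, 1.05 ± 0.16) was higher.

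Hedgehog genes, whose pathway PKA inhibits by phosphorylating GLI factors, had 3 higher and 5 lower of 22. The coreceptor GAS1 (935, 736 and 765 against 1518, 1576 and 1422, 0.89 ± 0.12) and PTCH1, the receptor and a target of the pathway (2875, 2541 and 2484 against 3738, 3659.6 and 3604, 0.48 ± 0.07), were higher. GPC3, a glypican that inhibits it, was lower (1056, 1069 and 1037 against 283, 275 and 261, -1.95 ± 0.09). SMO, another member of the list, was also lower (-0.43 ± 0.13, and -0.18 without wildtype library 1), but not called with isoproterenol (-0.12). Against unstimulated β-arrestin1/2 KO cells PTCH1 was higher (0.96) and GPC3 lower (-1.67), while GAS1 and SMO were not called (adjusted p = 0.18 and 0.097). Of 29 YAP and TEAD targets 7 were higher and 7 lower, so ANKRD1 (3.24) and MYOF (1.33) stood beside IGFBP3 (376, 309 and 313 against 106, 123 and 73.7, -1.73 ± 0.14), DLC1 (-1.35) and CTGF (-0.79). Notch genes had 4 higher and 6 lower of 22, among them the ligands JAG1 (0.44) and JAG2 (-0.84).

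Of 34 genes induced by ERK or feeding back on it, 5 were higher and 7 lower. ARC, an immediate-early gene of neurons, was lower (2592, 1174 and 1686 against 376, 404 and 397, -2.21 ± 0.21). MYC (8604, 6513 and 6908 against 3519, 3628 and 3488, -1.05 ± 0.10) and the ERK inhibitor SPRY2 (-0.47) were lower as well, and IER5 (2048, 1609 and 1924 against 3270.5, 3387 and 3088, 0.80 ± 0.09) and KLF6 (0.42) were higher. The list therefore had no single direction.

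Cell surface and matrix genes were called often, in both directions. Of 65 extracellular matrix genes, 17 were higher and 19 lower. COL3A1, a fibrillar collagen, was higher (71.9, 51.3 and 78.3 against 309, 311 and 291, 2.18 ± 0.19), and so was AGRN, the proteoglycan agrin (3772, 1769.6 and 2110.5 against 5762, 5856 and 5658, 1.17 ± 0.18). LAMA1, a laminin chain (1964, 1569 and 1470.4 against 486, 463 and 552, -1.74 ± 0.12), and ADAMTS1, a secreted protease (8054, 4593 and 5089 against 1742, 1773 and 1762, -1.75 ± 0.15), were lower. Of 58 integrins, cadherins and other adhesion genes, 20 were higher and 11 lower. PCDH10 (1.37) and the integrin ITGA3 (1.00) were higher and CDH4 (465, 320 and 404 against 148, 151 and 160, -1.37 ± 0.12) was lower.

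The clustered protocadherins, neuronal adhesion proteins encoded in 3 arrays on chromosome 5, were called in 1 direction. Of 54 genes 41 passed the filter, and 21 of them were higher and 0 lower, 20 of them at least 2-fold, with a median of 1.78 (1.71 without wildtype library 1). PCDHB2 had 20.8, 45.7 and 60.4 against 485, 461 and 435 and PCDHGA11 341, 390.3 and 376 against 679, 681 and 574 (0.80 ± 0.14). Genes that passed the filter through the higher line alone had to differ, and members of the α and γ arrays share their last exons, so the counts of single members are uncertain.

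Axon guidance genes had 18 lower and 8 higher of 55. SLIT2, a secreted repellent, was higher and abundant (4911, 4399 and 4261 against 15935, 15868 and 15595, 1.80 ± 0.07), and SEMA3C (1.12) was higher. EPHA7, an ephrin receptor, was lower (587, 1398 and 1290.2 against 468, 502 and 477, -1.18 ± 0.23). SEMA6B is named among the largest lower ones, but rests on 1 library (561, 32.3 and 70.5 against 15.9, 15.9 and 12.6) and was not called without it (-1.79, adjusted p = 0.0744). Of 41 neuronal and neuroendocrine genes, 7 were higher and 7 lower. The neurofilament NEFL (1664, 1831 and 1807 against 6082, 6592 and 5994, 1.82 ± 0.07), MAP2 and carboxypeptidase E (CPE, 1.06) were higher, and the neuropeptide galanin (GAL, -0.77) was lower.

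Kidney development and epithelial genes had 14 lower and 3 higher of 40. Besides LRP2, the nephron progenitor factor SIX2 (1148, 599 and 795 against 293, 282 and 259.6, -1.61 ± 0.17) was lower. EYA2 (689, 381 and 510.3 against 258, 216 and 212, -1.21 ± 0.16) was lower too, while vimentin (VIM, 20014, 16069 and 15726 against 27958, 28889 and 28418, 0.72 ± 0.08) was higher. Of 67 ion channel genes 18 were lower and 11 higher, with KCNG1 (1696, 957 and 1054 against 368, 299 and 287, -1.96 ± 0.17) lower and the sodium channel SCN9A (169, 306 and 254 against 861, 790 and 843, 1.78 ± 0.18) higher. Of 261 solute carriers 55 were lower and 31 higher. The sodium-calcium exchanger SLC8A1 was among the lower (202, 312 and 320 against 66.3, 58.1 and 40.2, -2.34 ± 0.26), as was the organic cation exporter SLC47A1 (-1.67), and the monocarboxylate transporter SLC16A7 among the higher (56.2, 140.5 and 114 against 473, 517 and 449, 2.21 ± 0.26).

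Among metabolic and stress genes, those induced by ATF4, the factor of the integrated stress response, had 20 lower and 1 higher of 38, with a median of -0.48 both with and without wildtype library 1. ALDH1L2, a mitochondrial folate enzyme (1088, 1580 and 1406 against 467, 485 and 463, -1.52 ± 0.12), TRIB3, a pseudokinase (1338, 706 and 965 against 393, 412 and 418, -1.30 ± 0.16), and CTH, which makes cysteine (254, 322 and 341 against 153, 139 and 148, -1.06 ± 0.13), were lower. DDIT4, an inhibitor of mTORC1, was the member called higher (0.59). Heat shock proteins had 10 lower and 3 higher of 25, with HSPH1 (-0.75) and HSPA6 (-1.68) lower. Glycolysis and hypoxia genes had 10 lower and 2 higher of 35, with hexokinase 2 (HK2, 1422, 971 and 1117 against 498, 456 and 459.8, -1.31 ± 0.14) and NDRG1 (12703, 8794 and 9696 against 4076, 4511 and 4341, -1.27 ± 0.10) lower and the phosphofructokinase PFKL (0.54) higher.

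Of 40 sterol and fatty acid genes 10 were lower and 6 higher. The transcription factor SREBF1 (2557, 1469.6 and 1620.4 against 660.1, 618 and 589, -1.60 ± 0.17), the fatty acid synthase FASN (45137, 23074 and 25043 against 15081, 14937 and 14615, -1.06 ± 0.17) and the sterol exporter ABCG1 (534, 374 and 361 against 88.7, 113 and 80.4, -2.17 ± 0.18) were lower. For SREBF1 and FASN wildtype library 1 was by far the highest, and the values were -1.31 and -0.69 without it. MSMO1, of cholesterol synthesis, was higher (269, 627 and 623 against 1097, 993 and 1086, 1.07 ± 0.20), with that library the lowest.

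Cell cycle genes had 12 lower and 11 higher of 49. The inhibitors of CDK4 and CDK6, CDKN2C (1324, 1008 and 1028 against 2821, 2993 and 2951, 1.38 ± 0.09) and CDKN2B (238, 234 and 257 against 539, 613 and 544, 1.22 ± 0.11), and the cyclin CCNE2 (1.24) were higher. The cyclin CCND2 (1786, 1959 and 2228 against 1151, 1088 and 1092, -0.84 ± 0.15) and the mitotic kinases AURKA (-0.82) and AURKB (-0.81) were lower. Of the lists with at least 10 tested members, histone genes had the largest share of higher members, 35 of 54 tested, with 1 lower and a median of 1.75 (1.77 without wildtype library 1), and 33 of the 35 were at least 2-fold higher. HIST1H2AC had 80.2, 69.1 and 78.3 against 613, 616 and 673, and the variant histone gene H2AFZ, whose transcript carries a poly(A) tail, was the lower one (8169, 6884 and 7328 against 5811, 5748 and 5813, -0.37 ± 0.07). Of the 103 histone genes in the annotation 49 did not pass the filter. As with the protocadherins, members that passed it through the higher line alone had to differ, which limits the share and median of this list. Libraries were made from RNA selected by its poly(A) tail, which most histone transcripts lack, so these values cover the tailed part.

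Of 30 interferon-stimulated and antigen presentation genes 8 were higher and 3 lower, with BST2 (503, 282 and 354 against 753, 890.3 and 822, 1.11 ± 0.17) and STAT2 (0.77) higher and IFITM1 (557, 454 and 409.6 against 274, 224 and 243, -0.94 ± 0.14) lower. Of 15 RGS proteins 3 were higher and 4 lower, with RGS19 (669, 417 and 414 against 189, 161 and 163, -1.55 ± 0.15) among the latter. Of 18 imprinted genes outside the GNAS locus, 1 was higher, the CDK inhibitor CDKN1C (256, 126 and 198 against 390.3, 487 and 406, 1.14 ± 0.19), and 5 lower, among them the growth factor IGF2 (-0.91). Of 481 zinc finger genes, 85 were higher and 45 lower.

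Ribosomal protein genes, 34 lower and 1 higher of 83, depended on the libraries. Their median was -0.28, -0.13 without wildtype library 1 and -0.04 with isoproterenol, where 12 were lower and 3 higher. RPS21 (14128, 6670.3 and 6714 against 2767, 2925 and 2807, -1.69 ± 0.22) had its highest wildtype value in library 1 and a value of -0.34 with isoproterenol (adjusted p = 0.26). Of 77 nuclear genes of oxidative phosphorylation 17 were lower and 5 higher, with a median of -0.17 that was -0.02 without that library and 0.07 with isoproterenol. ATP5ME (1199, 311 and 383 against 289, 264 and 283) rested on library 1 and was not called without it (adjusted p = 0.26). COX7C was lower without library 1 as well (6837, 6009 and 5860.4 against 3524, 3770.1 and 3738, -0.76 ± 0.08, and -0.69), but not called with isoproterenol (-0.22). Of the 13 mitochondrially encoded genes 1, MT-ND5, was called (0.34, with -0.02 and no call with isoproterenol).

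Whether a difference from wildtype cells also set Gαs KO cells apart from another knockout of the same parent line was tested directly against unstimulated β-arrestin1/2 KO cells, where 4064 genes were called (26.2%). Some of the largest differences did not separate the KO lines. COL2A1 had 8.44 ± 4.62 normalized counts in β-arrestin1/2 KO cells (mean ± SD, n = 3), against 17.7 ± 9.32 in Gαs KO and 1318 ± 291 in wildtype cells, and the KO lines were not called different (adjusted p = 0.0812). The same was seen for BCL6B (3.94 ± 3.91 in β-arrestin1/2 KO cells, adjusted p = 0.67), for FAM111B (2580 ± 272, adjusted p = 0.56) and for PLTP (193 ± 37.8, adjusted p = 0.23). For these genes it was thus wildtype cells that stood apart. ARC, TRIB3, SREBF1, FASN, ADAMTS1, SLC8A1 and SLC47A1, lower genes of the function lists, were not called between the KO lines either. Their adjusted p ran from 0.10 to 0.79. MYC (1.03), HK2 (0.41) and NDRG1 (0.36), lower than in wildtype cells, were higher than in β-arrestin1/2 KO cells. DHRS3 (-2.12), ALDH1A2 (-1.93) and ALDH1L2 (-1.13) were lower than in either line. The function lists as a whole were not counted against β-arrestin1/2 KO cells.

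GJB2 (6334 ± 188 in β-arrestin1/2 KO cells, log2 difference of Gαs KO minus β-arrestin1/2 KO -5.94), SHISA2 (19480 ± 405, -5.00), DEPP1 (17399 ± 608, -3.92) and ULK2 (577 ± 30, -3.13) were lower in Gαs KO cells than in either line, and TSC22D3 (1294 ± 77.7, 3.31), FHL1 (248 ± 17.3, 4.61) and SRPX2 (9.93 ± 4.55, 6.52) were higher than in either. Of the cAMP-induced genes CGA (3379 ± 548, -8.05), PCK1 (375 ± 40.8, -4.47), PCSK1 (50.6 ± 15.3, -3.37) and FOS (215 ± 52.9, -2.21) were lower than in either line too. NR4A1 was lower than in β-arrestin1/2 KO cells by less (876 ± 93.1, -1.39), and NR4A3 was not called (39.8 ± 10.5, -0.45, adjusted p = 0.27). CREM was higher in Gαs KO than in β-arrestin1/2 KO cells (361 ± 47.7, 0.54). NR4A2, FOSB, DUSP1, DUSP5, INHBA, RGS16, SLC2A3, IRS2, SGK1 and GPRC5A were also called lower than in β-arrestin1/2 KO cells. For SLC2A3 (3283 ± 200) and GPRC5A (3952 ± 131) β-arrestin1/2 KO cells lay far above wildtype cells (688 and 921). Their log2 differences, β-arrestin1/2 KO minus wildtype, were 2.25 and 2.10. The other members called lower than in wildtype cells were not called between the KO lines (adjusted p 0.12 to 0.87). These were PPARGC1A, PER1, PER2, GEM, RGS2, NFIL3, PDE4B, PDE4D, AVPI1, NTS, MAFF and CSRNP1. BDNF (0.04, adjusted p = 0.92) and PRKG2 (0.05, adjusted p = 0.89), both called higher than in wildtype cells, were not called different between the KO lines, nor was IER3 (-0.44, adjusted p = 0.063). TAT (2.16, adjusted p = 0.0033) and CITED2 (0.67, adjusted p = 6.0e-06), the other cAMP-induced genes called higher than in wildtype cells, were higher than in β-arrestin1/2 KO cells as well.

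The share of genes called lower differed among chromosomes. On chromosome 20, which holds GNAS, 198 of 407 tested genes were lower (48.6%) and 18 higher, with a median of -0.38. On chromosome 18, 95 of 218 were lower (43.6%) and 8 higher, with a median of -0.34. On the other chromosomes between 9.29 and 36.6% of the genes were lower, and medians ran from -0.28 (chromosome 17) to 0.28 (chromosome 13). Without wildtype library 1 the medians of chromosomes 20 and 18 were -0.32 and -0.43, with isoproterenol -0.33 and -0.42, and against β-arrestin1/2 KO cells -0.41 and -0.43. Between β-arrestin1/2 KO and wildtype cells they were 0.03 and 0.11. For chromosome 17 the median against β-arrestin1/2 KO cells was 0.02.

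Within chromosome 20, windows of 10 Mb differed. The first, from 0 to 10 Mb, had a median of 0.09, with 5 of 70 genes lower. The window from 50 to 60 Mb, which holds GNAS and PCK1, had a median of -0.66 with 36 of 49 genes lower, and the last, from 60 Mb to the end, -0.62 with 35 of 57 lower. On chromosome 18 the medians of the 6 windows with at least 20 tested genes ran from -0.43 to -0.25. Of the lower genes named above, ID1, EMILIN3, EYA2, KCNG1, AURKA, BMP7, PCK1, CDH4, RPS21 and RGS19 lie in windows of chromosome 20 with a median of -0.37 or less, and LAMA1, APCDD1 and GNAL on chromosome 18. TRIB3 and BMP2 lie in the first window of chromosome 20, where the median was 0.09, and PLTP was higher within a lower window. ULK2, DOC2B, BCL6B, SREBF1, FASN, PER1, AURKB, SLC47A1 and HOXB9 lie on chromosome 17, with a median of -0.28 and 36.6% of genes lower. The part of these regional medians in the difference of any single gene was not tested.

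**Figure D5:**
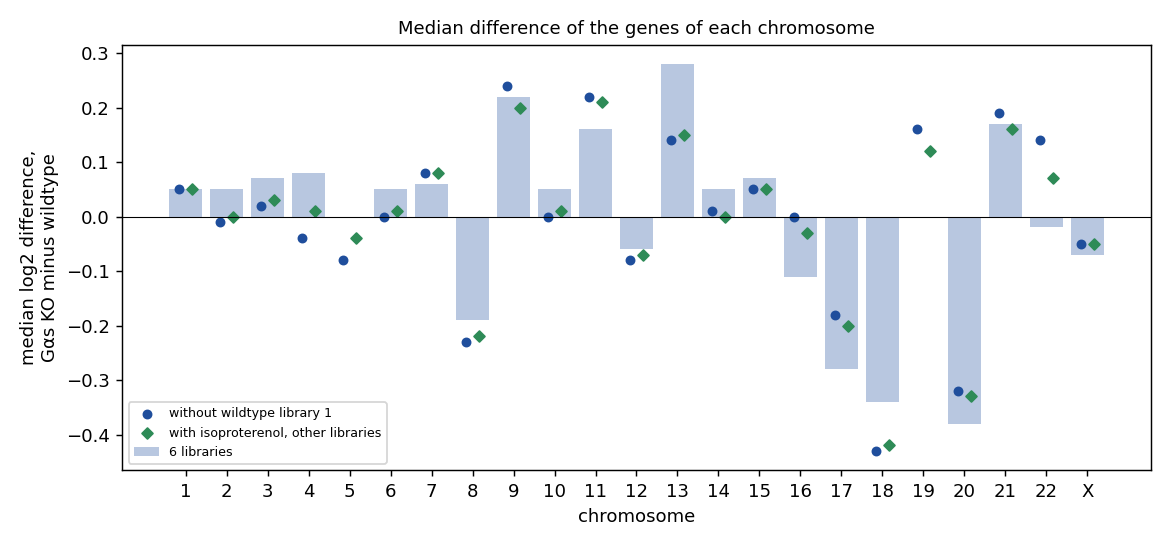
Median log2 difference, Gαs KO minus wildtype, of the tested genes of each chromosome. Bars use the 6 vehicle libraries, circles leave out wildtype library 1 and diamonds are the libraries with isoproterenol. Chromosomes 18 and 20 are the lowest by each measure (-0.34 and -0.38 by the bars).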

How the data were processed

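Polyadenylated RNA was sequenced in 18 libraries of HEK293 cells, 3 for each line (wildtype, Gαs KO or β-arrestin1/2 KO) given vehicle or 1 μM isoproterenol for 1 h. The authors deposited expected counts per transcript, estimated with Salmon 1.7.0 (GRCh38 per the submitters' processing notes), and used DESeq2 for their own tests. The release of their transcript index is not given in the sources used here. No column was left unused.

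Of 184844 transcripts 161798 matched the GENCODE 29 annotation by identifier and were summed to genes and rounded, which assigned 92.9 to 93.5% of the counts of the 6 libraries compared. Genes were filtered with filterByExpr, scaled by TMM and fitted with edgeR 4.0.16 (glmQLFit and glmQLFTest, R 4.3.3) on all 18 libraries with a coefficient per group, so that the spread is shared, and p-values were adjusted by Benjamini-Hochberg over all genes tested. The p-values measure the spread between the libraries of 1 line each. A call is an adjusted p under 0.05. With 3 against 3 libraries an exact permutation test cannot give a p below 0.1, so none was used. In bulk samples fewer cells of a type and less RNA per cell cannot be told apart. The test was run on simulated counts before use. Depth limits low genes, and a gene at 0 in a line was compared with a limit of 3 counts per library, which covers counting error only.

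Named genes were GNAS, the 15 well measured protein-coding or lincRNA genes with the largest difference in each direction (called with and without wildtype library 1, libraries of the lines not overlapping), up to 8 genes near absent in 1 line per direction under the same conditions, all called members of the lists of cAMP-induced genes and of cAMP synthesis, breakdown and effectors (1 of which is counted but not reported here), the 3 called members with the largest difference per direction of each other list at a mean of at least 200 normalized counts, and the 10 genes with the largest isoproterenol response in β-arrestin1/2 KO cells. AREG and VGF fall outside this rule and were named for their promoter after their values were seen. The members and lists were chosen with earlier results of these data known. Alternatives changed the scaling, the filter, the tool (DESeq2 1.42.0), the libraries in the fit, the replicate block, offsets for GC content and length (lowess, span 0.3), the threshold and single libraries. A fit of the 2 groups alone without wildtype library 1, a DESeq2 fit without it, the other comparisons without that library or with DESeq2, and windows along chromosomes 18 and 20 were added after seeing the data. Promoter sequences are from RefSeq (GRCh38.p14).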

Additional observations from a re-analysis of the deposited data

Results flagged for a closer look

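The rule for named genes picked 244 genes, some of which are not printed above. For 15 of these 244 genes, the log2 difference between Gαs KO and wildtype cells was lower with isoproterenol than with vehicle by a test of that change itself (edgeR's quasi-likelihood test, adjusted p under 0.05, called for 0.161% of all genes tested). The changes were -3.42 for NR4A2, -3.20 for PCK1, -2.83 for NR4A3, -2.76 for FOS, -2.73 for JUNB, -2.52 for DUSP1, -2.30 for SIK1, -2.28 for SIK1B, -2.08 for BTG2, -1.92 for FOSB, -1.71 for NR4A1, -1.46 for RGS2, -1.32 for GEM, -1.01 for SGK1 and -0.69 for CITED2. Of these, JUNB, BTG2, SIK1 and SIK1B were not called with vehicle, and CITED2 was called higher with vehicle and not called with isoproterenol. SIK1 and SIK1B are near-identical copies between which reads can be split. Genes that respond to isoproterenol in wildtype cells enter this change by that response. All 15 changes were also called with the replicate number as a block. Wildtype library 1, which stood apart from the other libraries, is among the vehicle libraries behind these values.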

How the results depend on the processing

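The 4864 genes called between unstimulated lines became 1587 in a fit of the 6 libraries alone, 520 in that fit with the replicate number as a block, 7319 with GC and length offsets without wildtype library 1, 3051 at an adjusted p under 0.01 and 1255 at a log2 difference of at least 1. Leaving out 1 library in turn gave 3700 to 7236. Offsets for GC content and length with all libraries called 7219 genes, 4688 of them shared with the 4864, and DESeq2 called 5370. The percentage of isoproterenol-induced genes called lower fell from 50.0 to 24.1 when these genes were chosen in the 6 β-arrestin1/2 KO libraries alone. Of the 725 genes so chosen, 389 were called lower without wildtype library 1, beside 24.0% of all genes. With GC and length offsets 324 of them were called lower, beside 25.7% of all genes. Between lines with isoproterenol, 4646 genes became 7454 in the 6 libraries alone, 7180 with GC and length offsets and 7796 without wildtype library 1, and against β-arrestin1/2 KO cells 4064 became 7172, 7144 without that library and 6638 with the offsets. These contrasts do not compare that library, which entered their filter on low counts (15519 genes were tested with it and 15773 without it) and the shared estimate of the spread. The causes of the moved counts were not tested.

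Same-numbered libraries did not deviate together (correlations of 0.04, -0.02 and -0.07), and nothing in the labels pairs them. The replicate block on all 18 libraries called 4815 genes, 4671 of them in common with the fit without it, and ended the call of 3 named genes. Of the 244 named genes, 115 kept their direction and call under each alternative, 128 lost or gained a call under at least 1, and JUNB, not called, changed sign (-0.05 without wildtype library 2 and -0.0 without Gαs KO library 2, in a range of -0.05 to 0.21 over the libraries left out). In the fit of the 6 libraries alone 84 of them lost their call. Low counts limit the precision of genes such as TAT, PDE4B and PDE7B.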
